A study of Mus musculus with 12 samples.

Results

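The small leucine-rich proteoglycans (SLRPs) are a family of secreted matrix proteins, and 10 of their genes were followed here in mouse tumors: Lum, Dcn, Bgn, Ogn, Fmod, Prelp, Aspn, Omd, Kera and Podn. The genes were taken by symbol from the 19938 genes that the arrays name, and the probeset of each gene was chosen by measured values, as the one with the highest mean over all 12 tumors. That step changed nothing, because each of the 10 genes had 1 probeset. Of the 10 genes, 8 were among the 16573 genes tested. Omd and Kera were not, because a gene was tested only when its log2 value passed 5.38, the lower quartile of all values, on at least 4 arrays, and they did so on 1 array and on 0 arrays. The 8 others passed that value on all 12 arrays.

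The study asked what the enzyme Vnn1 (vanin-1, a pantetheinase that releases pantothenate and cysteamine) does in tumors of Ras-transformed myofibroblasts. The cells were a myofibroblast line from C57BL/6 mice that lack p16, p19 and Vnn1, so the cells of all groups carry these deletions. They were transduced with a retroviral vector coding for RasV12 alone (R), for Vnn1 and RasV12 (VR), or for a catalytically deficient Vnn1 and RasV12 (VdR), with the Vnn1 sequence behind the cytomegalovirus promoter and RasV12 fused to GFP. Each line was grafted under the skin of nude mice, and 4 tumors a group (numbers 1, 2, 4 and 5) were put on 1 Affymetrix array each. The labels give a harvest after 2 to 3 weeks depending on growth, whereas the study's methods name the last day of that span. No other treatment is given in the labels, and no age. The nude host lacks a thymus but keeps myeloid, NK, endothelial and stromal cells whose Vnn1, p16 and p19 genes are not those of the graft. The 4 tumors of a group repeat the graft and not the transduction. A difference between groups can therefore not be told apart from a difference between the lines. The label of the extraction speaks of sorted cell subsets, whereas the study's methods describe whole tumors. In either case each array reads a bulk sample, where fewer cells of a type and less RNA per cell cannot be told apart.

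All values are log2 expression after RMA (robust multi-array average) normalization, so a difference of 1 is a doubling. Tumors of a group correlated at 0.988 to 0.996 over the 16573 genes tested. Vnn1 itself, by group, ran from 5.53 to 5.83 (R), from 11.37 to 11.73 (VdR) and from 10.54 to 11.26 (VR), which follows the labels. Transcripts of skeletal muscle (Acta1, Myh4, Ckm, Tnnt3 and Mylpf) stood apart in 5 tumors. Their mean was 9.62 and 8.86 in R tumors 2 and 5, 9.30 and 9.79 in VdR tumors 2 and 4, and 8.83 in VR tumor 2, against 6.89 to 7.05 in the 7 others. Results were therefore also computed without those 5 tumors, a step chosen after seeing the data.

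SLRPs have a core of leucine-rich repeats that folds into a curved solenoid, and most carry chondroitin, dermatan or keratan sulfate chains. They sit on collagen fibrils and set how thick and how regularly spaced the fibrils become. Several also bind growth factors such as TGF-beta and, once free in the tissue, receptors of innate immunity. Connective tissue fibroblasts are their main source, and fibroblast-rich tumor stroma is known for high decorin, biglycan and lumican.

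Most SLRP genes lie in clusters, which the results below return to. In the RefSeq order (GRCm38.p6) Dcn, Lum and Kera follow each other on chromosome 10, Aspn, Omd and Ogn on chromosome 13, and Prelp and Fmod on chromosome 1. Podn on chromosome 4 and Bgn on the X chromosome stand alone. The RefSeq table of promoters matched 8 of the 10 genes. The sequences of a pair that was higher together in VR tumors (Aspn and Ogn) and of a neighbouring pair with unlike results (Prelp and Fmod) are shown as the 250 bases before the annotated start, read 5′ to 3′ in the direction of the gene. They lie at chr13:49544193-49544442 (plus strand), chr13:49607765-49608014 (plus strand), chr1:133921402-133921651 (minus strand) and chr1:134037004-134037253 (plus strand) of GRCm38.p6. Capitals mark a match to any of 4 motifs searched on both strands.
Aspn: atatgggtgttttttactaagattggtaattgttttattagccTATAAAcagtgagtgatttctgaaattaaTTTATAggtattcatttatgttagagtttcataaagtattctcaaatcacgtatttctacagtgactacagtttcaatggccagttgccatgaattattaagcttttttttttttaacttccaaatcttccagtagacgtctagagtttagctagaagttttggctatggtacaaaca
Ogn: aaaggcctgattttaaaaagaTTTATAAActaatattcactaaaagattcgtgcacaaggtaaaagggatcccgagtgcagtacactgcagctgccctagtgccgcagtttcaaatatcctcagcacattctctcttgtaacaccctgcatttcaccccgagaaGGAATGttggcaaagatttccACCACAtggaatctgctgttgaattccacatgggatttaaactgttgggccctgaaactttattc
Prelp: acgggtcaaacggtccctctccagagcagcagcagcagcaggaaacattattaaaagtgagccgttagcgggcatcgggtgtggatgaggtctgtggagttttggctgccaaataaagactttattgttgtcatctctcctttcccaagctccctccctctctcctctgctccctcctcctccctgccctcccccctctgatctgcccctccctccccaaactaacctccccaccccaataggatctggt
Fmod: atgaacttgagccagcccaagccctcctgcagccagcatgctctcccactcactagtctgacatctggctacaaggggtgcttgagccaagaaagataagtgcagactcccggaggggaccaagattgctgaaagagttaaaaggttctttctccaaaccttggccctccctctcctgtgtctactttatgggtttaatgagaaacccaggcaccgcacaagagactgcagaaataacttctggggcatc

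The TATA box was searched as TATAAA, which 12.4% of 32851 promoters of this length held. The AP-1 site was searched as TGANTCA (held by 6.75%), the TEAD site as GGAATG (12.6%) and the Runx site as TGTGGT (14%). A match is a run of letters and not a shown site. Aspn held 2 matches to TATAAA. Ogn held 2 that overlap on opposite strands, plus 1 match to GGAATG and 1 to TGTGGT. Neither Prelp nor Fmod held any of the 4, which says only that these letters are not in this window. The TATAAA matches lay 173 to 207 bases before the start in Aspn and 222 to 229 bases before it in Ogn. The chromosome 13 promoters were poor in G and C: 30.0% in Aspn, 38.4% in Omd and 42.0% in Ogn, against a median of 52.4% over all promoters. Aspn stood at percentile 1.6 of that distribution. Prelp had 55.6%, Fmod 51.2% and Bgn 64.4%. Low values were not particular to chromosome 13. On chromosome 10 Kera had 42.4%, and its neighbour Epyc had 39.2% and 31.2% before its annotated starts.

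The first question was which SLRP genes differ between tumors with active Vnn1 (VR) and tumors with RasV12 alone (R). The SLRP genes were mostly higher in VR. Calls were made by limma with Benjamini-Hochberg adjustment over the 16573 genes, at an adjusted p under 0.05. Of the 6 tested members other than Lum and Ogn, 4 were higher in VR, 0 were lower and 2 did not pass. Of all genes tested, 13.6% were called higher and 7.48% lower. The differences of Lum and Ogn were known when the genes were chosen, so they are left out of that count and given as a description with no p. The median difference of the 6 was 0.74 on the log2 scale, beside -0.01 over all genes. With Lum and Ogn it was 1.19.

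**Figure D1:**
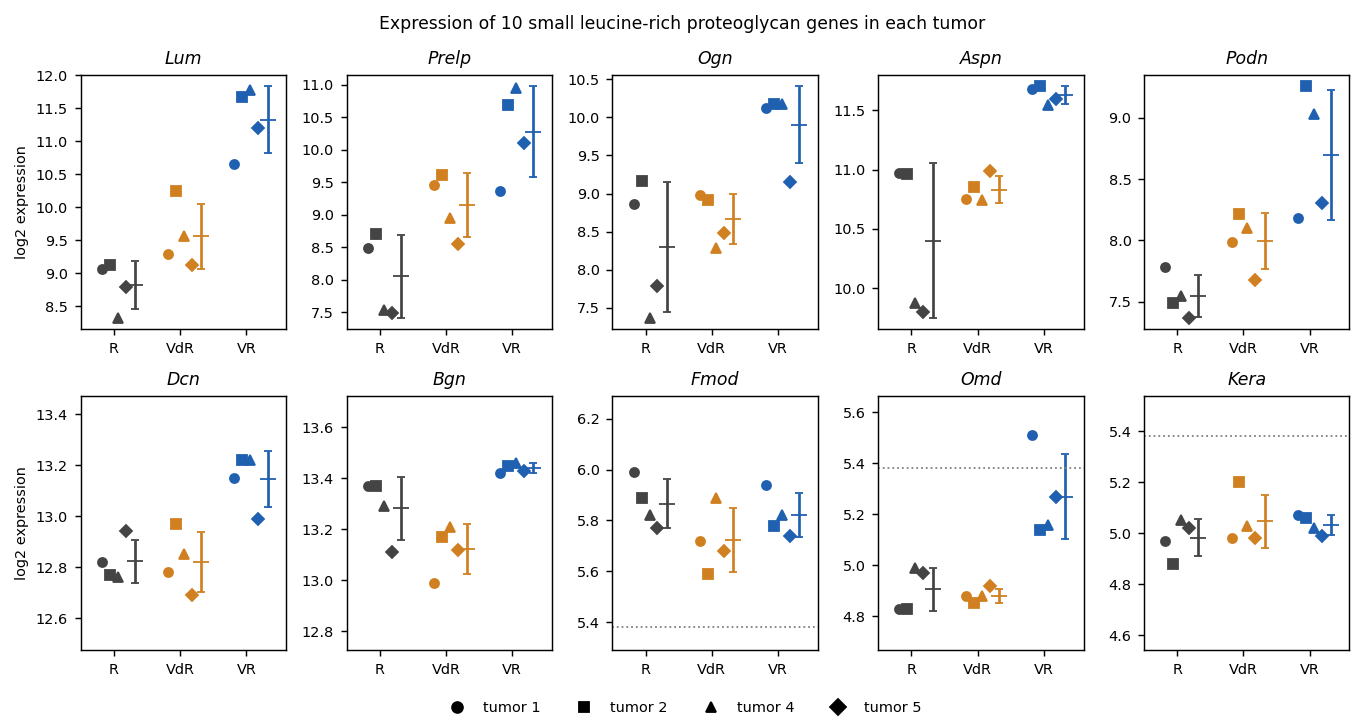
Log2 expression (vertical axis, own range for each gene) of the 10 SLRP genes in each of the 12 tumors, by group (R, VdR, VR). Symbols give the tumor number, the bar beside them the mean and SD of the 4 tumors, and the dotted line the value of 5.38 used as filter. The VR points all lie above the R points in Lum, Prelp, Aspn, Podn, Dcn, Bgn and Omd.

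Lum (lumican) carries keratan sulfate and keeps collagen fibrils thin and evenly spaced, as in the cornea. In R tumors 1, 2, 4 and 5 its log2 level was 9.06, 9.12, 8.33 and 8.79. In VdR it was 9.30, 10.25, 9.57 and 9.12, and in VR 10.66, 11.67, 11.77 and 11.20. All 4 VR tumors lay above all 8 others, while VdR tumor 5 matched the highest R tumor. The mean was higher in VR than in R by 2.50 (5.66-fold). It was higher in VR than in VdR by 1.77 (SE 0.280, 3.40-fold, limma adjusted p = 0.0122), the largest of the members in that comparison. That difference uses the same VR tumors as the VR versus R difference known when Lum was chosen.

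Prelp (proline and arginine rich end leucine-rich repeat protein) links collagen to the heparan sulfate of basement membranes. Its level was 8.49, 8.71, 7.53 and 7.49 in R tumors, 9.46, 9.62, 8.95 and 8.55 in VdR tumors, and 9.36, 10.69, 10.95 and 10.11 in VR tumors. R tumors 4 and 5 were the lowest, VdR tumors 1, 2 and 4 lay above all R tumors, and VR tumor 1 lay inside the VdR range. Prelp rose from R to VR by 2.22 (SE 0.374, 4.67-fold, limma adjusted p = 0.00170). Between VdR and R the difference was 1.09 (95% interval 0.28 to 1.90, adjusted p = 0.0936), and between VR and VdR 1.13 (0.32 to 1.95, adjusted p = 0.115), both by limma and both short of the threshold.

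Ogn (osteoglycin, also called mimecan) is a small member that acts on fibril formation. Its level was 8.86, 9.16, 7.37 and 7.79 in R tumors, 8.98, 8.91, 8.29 and 8.48 in VdR tumors, and 10.12, 10.18, 10.17 and 9.15 in VR tumors. VR tumors 1, 2 and 4 lay close together and VR tumor 5 lay well below them, at the level of R tumor 2, so that VR and R overlapped. The mean was higher in VR than in R by 1.61 (3.05-fold). Against VdR all 4 VR tumors were higher, with a difference of 1.24 (95% interval 0.44 to 2.04) that limma did not call (adjusted p = 0.0847).

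Aspn (asporin) binds collagen and TGF-beta and carries a run of aspartates in place of a sugar chain. It read 10.97, 10.96, 9.88 and 9.80 in R tumors, 10.75, 10.85, 10.74 and 10.99 in VdR tumors, and 11.68, 11.70, 11.54 and 11.59 in VR tumors. The VR tumors lay close together and above all others, whereas the R tumors fell into a higher pair (1 and 2) and a lower pair (4 and 5). Aspn rose from R to VR by 1.23 (SE 0.235, 2.34-fold, limma adjusted p = 0.00340). By the methods' t-test, which the study names for qRT-PCR, Aspn did not pass (adjusted p = 0.061). Against VdR the difference was 0.80 (95% interval 0.29 to 1.31, limma adjusted p = 0.0828).

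Podn (podocan) is a more distant member that was described in vessel wall and kidney. Its level was 7.78, 7.49, 7.55 and 7.37 in R tumors, 7.99, 8.22, 8.10 and 7.68 in VdR tumors, and 8.18, 9.26, 9.03 and 8.31 in VR tumors. VR tumors 2 and 4 were well above the rest, while VR tumor 1 lay just under VdR tumor 2. Podn rose from R to VR by 1.15 (SE 0.214, 2.22-fold, limma adjusted p = 0.00292). Without the 5 tumors with muscle transcripts that difference was 0.84 and no longer passed (limma adjusted p = 0.0521). Against VdR it was 0.70 (95% interval 0.24 to 1.17, limma adjusted p = 0.0924).

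Dcn (decorin) and Bgn (biglycan) are the dermatan sulfate members, and decorin is the best known binder of TGF-beta among them. Their means lay at percentiles 99.7 and 99.9 of all genes, near the top of the scale (highest value in the data 13.97). Dcn read 12.82, 12.77, 12.76 and 12.94 in R tumors, 12.78, 12.97, 12.85 and 12.69 in VdR tumors, and 13.15, 13.22, 13.22 and 12.99 in VR tumors. Each VR tumor was above all tumors of the other groups, VR tumor 5 by the least. Dcn rose from R to VR by 0.32 (SE 0.0743, 1.25-fold, limma adjusted p = 0.00917) and was higher in VR than in VdR by the same 0.32 (adjusted p = 0.0371).

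Bgn read 13.37, 13.37, 13.29 and 13.11 in R tumors, 12.99, 13.17, 13.21 and 13.12 in VdR tumors, and 13.42, 13.45, 13.46 and 13.43 in VR tumors. The 4 VR tumors were nearly equal and above all others, and the R and VdR ranges overlapped. Bgn was higher in VR than in VdR by 0.32 (SE 0.0679, limma adjusted p = 0.0310). The difference from R was 0.16 (95% interval 0.01 to 0.30) and did not pass (limma adjusted p = 0.122), although the groups did not overlap (two-sided exact permutation p = 0.0286, the smallest that 4 against 4 tumors can give).

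Fmod (fibromodulin), a keratan sulfate member that helps to cross-link fibrils, was the tested member with no change called in any comparison and no separation of groups. It read 5.99, 5.89, 5.82 and 5.77 in R tumors, 5.72, 5.59, 5.89 and 5.68 in VdR tumors, and 5.94, 5.78, 5.82 and 5.74 in VR tumors, close to the filter value throughout. The interval of its VR versus R difference ran from -0.20 to 0.11, below the difference of Prelp, its neighbour on chromosome 1.

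Omd (osteomodulin), known from bone and tooth matrix, and Kera (keratocan), known from the cornea, lay at low values and have no adjusted p over the tested genes. Omd ran from 4.83 to 4.99 over the R tumors and from 4.85 to 4.92 over the VdR tumors, and read 5.51, 5.14, 5.16 and 5.27 in VR. The VR tumors were all above the 8 others, by a mean of 0.36 over R and 0.39 over VdR. Since the R and VdR values lie under the filter on each array, these differences are given as a description, with no test. Kera ran from 4.88 to 5.05 (R), from 4.98 to 5.20 (VdR) and from 4.99 to 5.07 (VR), and its groups overlapped.

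Counted by separation alone, the VR tumors all exceeded the R tumors in 5 of the 6 tested members other than Lum and Ogn (Prelp, Aspn, Podn, Dcn and Bgn). That was so for 15.3% of all genes tested. Lum was separated too and Ogn was not.

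The second comparison asked what the catalytically deficient Vnn1 was accompanied by (VdR versus R). No SLRP gene was called. By limma 0 of 8 tested members were higher and 0 were lower, where 6.58% and 2.81% of all genes were called. For 8 genes, 0 calls are near those shares. The methods' t-test also called 0. Lum and Prelp, both higher, and Bgn, lower, had an unadjusted limma p under 0.05. The share of all genes under that threshold was not computed, so this is a description. The Lum difference was 0.73 (95% interval 0.13 to 1.34, adjusted p = 0.131), and that of Bgn was -0.16 (-0.31 to -0.01, adjusted p = 0.177). Podn, Aspn and Ogn differed by 0.45, 0.43 and 0.37, with limma adjusted p values of 0.235, 0.306 and 0.614. The Dcn means were nearly equal, with a difference of -0.0012 and an interval of -0.16 to 0.16. The VdR tumors lay wholly above the R tumors in 0 of the 8 tested members and in 9.73% of all genes tested, again near that share. The median over the 8 members was 0.40, beside 0.0038 over all genes. The counts and this median include Lum and Ogn. They were chosen with their VR versus R differences known, and the same R tumors enter here.

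Leaving out R tumor 5 brought Bgn past the threshold as lower in VdR (difference -0.22, limma adjusted p = 0.0389). Since R serves both comparisons, the R tumors 4 and 5, which were low in Aspn, Ogn and Prelp, enter the VR and the VdR differences alike.

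The third comparison set active against catalytically deficient Vnn1 (VR versus VdR), the contrast that holds the presence of the Vnn1 sequence the same. It does not hold the Vnn1 transcript level the same, which was 11.37 to 11.73 in VdR and 10.54 to 11.26 in VR. Here limma called 3 of the 8 tested members higher in VR (Lum, Bgn and Dcn) and 0 lower, while 1.77% of all genes were called higher and 1.67% lower. Every VR tumor exceeded every VdR tumor in 5 of the 8 tested members (Lum, Ogn, Aspn, Dcn and Bgn), against 5.88% of all genes. The median difference of the 8 members was 0.75, beside -0.02 over all genes. Both counts and this median include Lum and Ogn. They were chosen with their VR versus R differences known, and the same VR tumors enter here. The Fmod difference was 0.10 (95% interval -0.06 to 0.26). The Lum call held when any 1 tumor was left out. The Dcn call was lost without any 1 of VdR tumors 1, 4 or 5 or VR tumors 1, 2 or 4, with limma adjusted p from 0.059 to 0.104. The Bgn call was lost without any 1 of VdR tumors 1 or 5 or VR tumors 2, 4 or 5, with adjusted p from 0.0633 to 0.0855. Without VR tumor 1, Prelp (1.44, adjusted p = 0.0476) and Podn (0.87, adjusted p = 0.0386) passed by limma. With only the 2 compared groups in the fit, limma also called Ogn (adjusted p = 0.0372) and Aspn (0.0052) but not Dcn (0.0581). Without the 5 tumors with muscle transcripts limma called 7 genes in all, against 570 with all tumors, and none of the 8 members, Lum included (2.00, adjusted p = 0.0814).

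**Figure D2:**
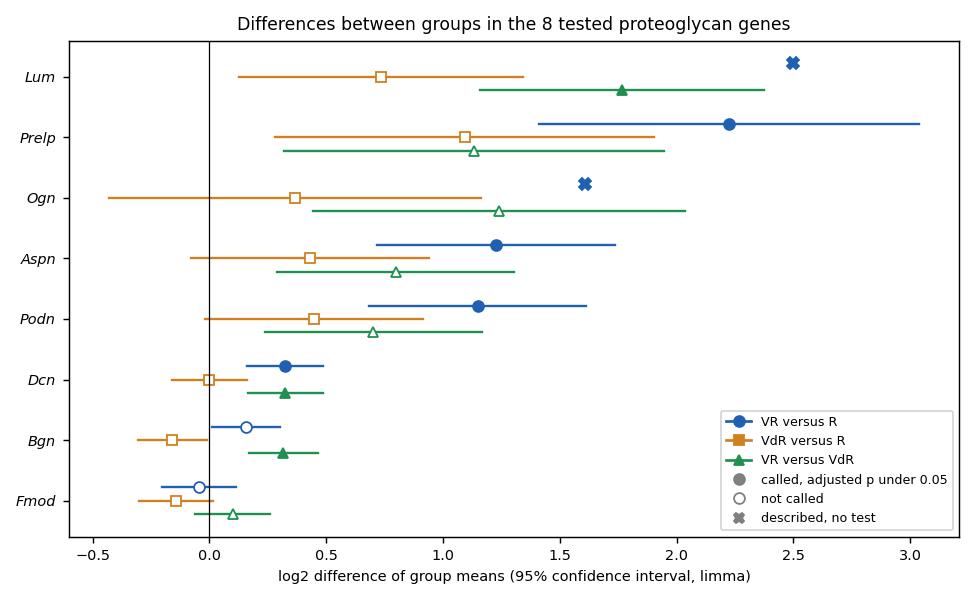
Differences of group means on the log2 scale (horizontal axis) for the 8 tested SLRP genes, with 95% confidence intervals from limma, in 3 comparisons by colour. Filled symbols are called (adjusted p under 0.05), open symbols are not, and crosses mark the 2 differences described with no test. For Lum, Prelp, Ogn, Aspn and Podn the VdR versus R difference is the smallest of the 3, and for Fmod all intervals include 0.

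Along the chromosomes, genes next to each other did not share 1 result. On chromosome 13, Ecm2 (a relative with leucine-rich repeats that precedes Aspn) rose from R to VR by 0.91 (SE 0.186, limma adjusted p = 0.00499), next to Aspn and Ogn. Cenpp, a centromere protein gene whose span contains Aspn, Omd and Ogn, differed by 0.05 (limma adjusted p = 0.751), and Nol8, a nucleolar protein gene on the far side of Ogn, by 0.07 (0.681). On chromosome 10, Dcn and Lum were higher, Kera differed by 0.05, and Epyc (epiphycan of cartilage), at low values and not tested, by -0.03. On chromosome 1, Optc (opticin of the eye) differed by 0.07 (limma adjusted p = 0.325) beside Prelp with 2.22, and Fmod by -0.05 (0.678). The growth-arrest gene Btg2 after Fmod differed by 0.58 and did not pass (0.0788). Scp2, the sterol carrier gene next to Podn, rose by 0.33 (limma adjusted p = 0.0237).

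**Figure D3:**
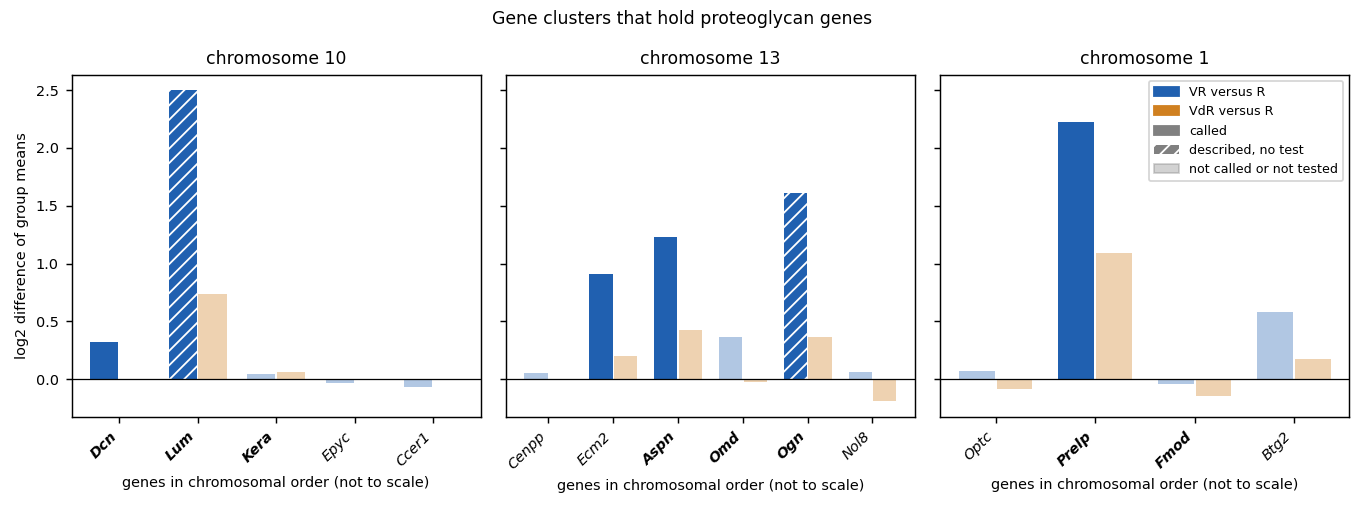
Log2 difference of group means (vertical axis) of the genes in 3 chromosomal clusters, in chromosomal order and not to scale, for VR versus R and VdR versus R; SLRP members are in bold. Full bars are called, hatched bars are described with no test, and pale bars are not called or not tested. On chromosome 13 Ecm2, Aspn and Ogn stand above 0.9 in VR versus R, while Cenpp and Nol8 stay under 0.1.

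Among tumors of the same group, the members varied in part together. Over the 12 deviations from the group means, the 28 pairs of tested members had a median Pearson r of 0.36 (from -0.22 to 0.85), and 22 were positive. The closest pairs were Lum with Prelp (0.85), Ogn with Aspn (0.77), Lum with Podn (0.74) and Prelp with Podn (0.73). These are descriptions: the points share a tumor and an array, and the order within the groups rests on 4 tumors each. Pairs of other genes were not computed for comparison. Among the 16572 other tested genes, those most like Lum were Prg4 (0.95), Dysf (0.948), Mir99a (0.926), Plekhm3 (0.914) and Mir99ahg (0.908). Those most like Prelp, the member with the next largest spread between groups, were Dpt (0.961), Ablim1 (0.958), Arhgef10 (0.945), Serping1 (0.930) and Scn7a (0.923). These are the highest values among 16572 genes, whose median r was -0.078 with Lum and -0.068 with Prelp. Prg4 encodes lubricin, the lubricating proteoglycan of joints, and Dpt encodes dermatopontin, a collagen-binding protein of dermal fibroblasts. Dpt rose with Prelp from R to VR, by 2.34 (limma adjusted p = 2.4e-04), whereas Prg4 differed by 0.30 (0.645).

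Related genes were taken from lists that were chosen with earlier results of these data known. Their shares of calls in VR versus R are therefore descriptions, set beside the 13.6% (higher) and 7.48% (lower) of all genes. The shares of all genes were 6.58% and 2.81% in VdR versus R, and 1.77% and 1.67% in VR versus VdR. Of the other SLRP genes measured, 6 were tested: Ecm2 was called higher in VR than in R, and Optc, Nyx, Chad, Chadl and Podnl1 did not pass in any comparison. The enzymes that build chondroitin and dermatan sulfate, the chains of Dcn and Bgn, held 4 higher of 22 (18.2%) in VR versus R and 0 lower, near the share over all genes. They included Dse and Dsel, the epimerases that turn chondroitin into dermatan sulfate, with 0.39 (limma adjusted p = 0.00228) and 0.38 (0.0131), and Chpf2, a chain polymerizing factor, with 0.36 (0.00901). In VdR versus R 3 (13.6%, against 6.58% of all genes) were higher, namely Xylt2, Chst14 and Dse, each by 0.29, and Dsel differed by -0.02. Dsel was the 1 gene of this list called between VR and VdR (0.41, limma adjusted p = 0.0395). Of 8 genes of keratan sulfate synthesis 1 (12.5%) was called higher, again near that share. The galactosyltransferase B4galt4 was called higher in VR than in R (0.71, limma adjusted p = 1.8e-04) and in VdR than in R (0.48, 0.00303), and no gene was called between VR and VdR.

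The collagens that SLRPs coat showed 8 higher of 15 (53.3%) in VR versus R and 0 lower, among them Col6a2 (0.93), Col6a1 (0.63) and Col3a1 (0.54). In VdR versus R 0 of 15 were called by limma, and between VR and VdR Col6a2 (0.57) and Col6a3 (0.30) were higher, both with an adjusted p of 0.0312. Of 23 other proteoglycan genes, 5 (21.7%) were higher and 4 (17.4%) lower in VR versus R. The higher ones were led by Srgn (serglycin of blood cells, 0.86), Tgfbr3 (betaglycan, 0.62) and the glypican Gpc6 (1.15), and the lower ones were the glypican Gpc2 and the syndecans Sdc1, Sdc2 and Sdc4, of which Sdc2 fell by 0.27. In VdR versus R 3 were higher (Srgn, Gpc6 and Tgfbr3) and Sdc1 was lower.

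Of 17 receptors and growth factors that SLRPs bind, 5 (29.4%) were higher and 3 (17.6%) lower in VR versus R. Tlr2 and Tlr4, the receptors that free biglycan engages, rose by 1.12 and 0.59, and Tgfbr2 rose by 0.57. Bmp2, Itga2 and Tgfb1 fell by 2.62, 1.16 and 0.29. Tlr2, Tlr4 and Tgfbr2 were also higher, and Bmp2 and Itga2 lower, in VdR versus R. Of 16 genes for proteases and their helpers that process SLRPs or collagen, 4 (25%) were higher and 1 (6.25%) was lower, the latter near the share over all genes, in VR versus R: Pcolce2, an enhancer of procollagen cleavage, by 1.78, the aggrecanase Adamts5 by 1.39, Mmp2 by 0.29 and Pcolce by 0.37, while Adamts4 fell by 0.76. Pcolce2 was also higher in VdR (1.21), and Mmp12 was lower (-0.59). None of these last 3 lists (proteoglycans, receptors and proteases) held a limma call between VR and VdR. This was near the 1.77% (higher) and 1.67% (lower) of all genes.

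**Figure D4:**
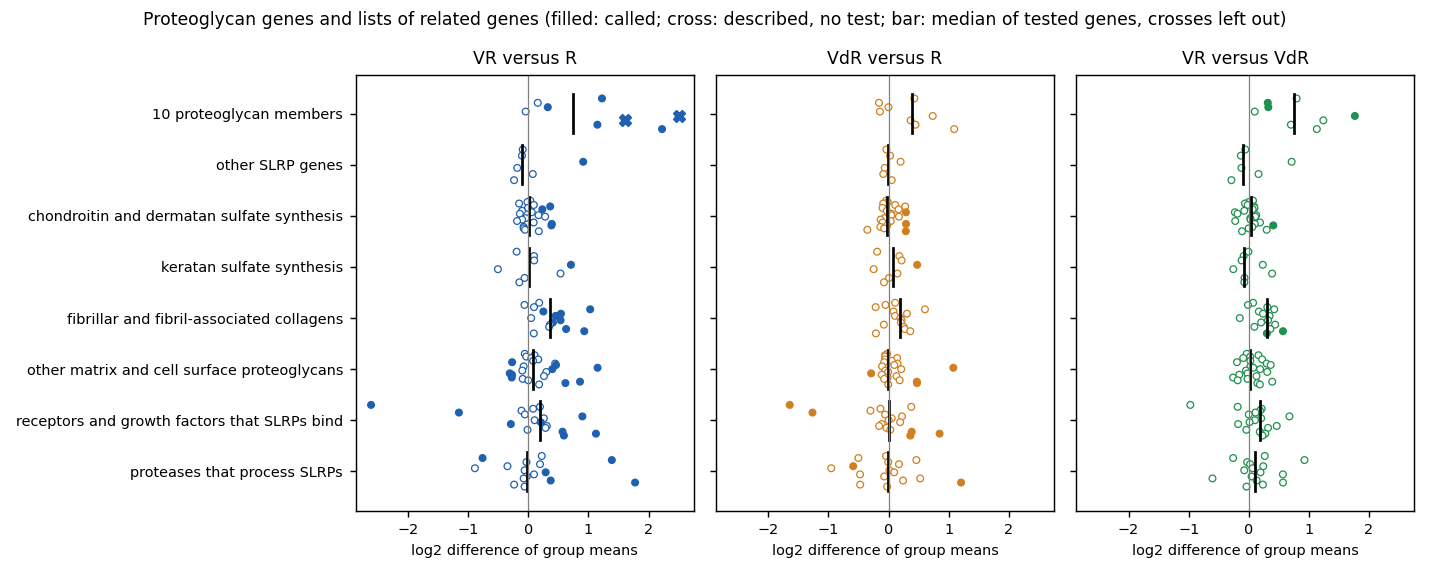
Log2 differences of group means (horizontal axis) of the 8 tested SLRP members and of the tested genes in 7 lists of related genes, 1 point a gene, in 3 comparisons. Filled points are called, open points are not, crosses are Lum and Ogn described with no test, and the bar is the median. The bar leaves out the crosses: the 6 other members have a median of 0.74 in VR versus R, and the collagens one of 0.36.

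Markers of cell types moved beside the SLRP genes. The marker lists, too, were chosen with earlier results of these data known. Their calls, here and in the next paragraph, are descriptions set beside the shares of all genes. In VR versus R 13.6% were called higher and 7.48% lower. The shares were 6.58% and 2.81% in VdR versus R, and 1.77% and 1.67% in VR versus VdR. Markers of resident connective tissue fibroblasts, which make SLRPs, had a mean log2 level over the 9 genes measured of 9.07 to 9.49 (R), 9.35 to 9.72 (VdR) and 9.66 to 10.21 (VR). In VR versus R 6 of them were higher (Pdgfra, Dpt, Pi16, Dpp4, Clec3b and Col15a1) and Cd34 was lower, in VdR versus R only Dpt was called, and in VR versus VdR only Dpp4. Myofibroblast markers, the labelled cell type, were present, with means of 10.14 to 10.92 (R), 10.52 to 10.77 (VdR) and 10.74 to 10.99 (VR) and with 3 of 8 higher in VR than in R (Myl9, Thy1 and Pdgfrb). Of these, only Thy1 was also called higher in VR than in VdR. Macrophage markers were higher in VR and in VdR than in R for 9 of 9 genes, with means of 9.45 to 9.96 (R), 10.76 to 11.16 (VdR) and 10.66 to 10.79 (VR), and 0 of 9 were called between VR and VdR. Endothelial markers had means of 9.03 to 9.67 (R), 9.22 to 9.59 (VdR) and 9.79 to 10.14 (VR), with Kdr and Tek of 5 higher in VR than in R. Between VR and VdR only Tek was called, as higher in VR.

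Of the other cell types that make SLRPs, chondrocyte and osteoblast markers had 0 of 7 called higher in VR versus R and 2 called lower (Sox9 and Ibsp). Tenocyte markers had Thbs4 of 4 higher and Scx and Mkx lower. Keratinocyte and adipocyte markers had none called of 4 and of 3, nor had the 5 of skeletal muscle or the 2 of Schwann cells. Of 2 tested lymphocyte markers, the NK cell gene Ncr1 was higher in VR than in R and in VdR. The part of any of these cell types in the SLRP differences was not tested.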

How the data were processed

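Total RNA of 12 tumors (4 R, 4 VdR and 4 VR) was amplified, labelled with biotin and hybridised to Affymetrix mouse gene arrays, 1 tumor an array. The deposited values are log2 intensities that the authors obtained with RMA in oligo (versions not given in the sources used here). RMA subtracts background, forces all arrays to 1 distribution and summarises probes. Differences near the top and the bottom of the array scale can be compressed. Array medians ran from 6.66 to 6.77. The number of arrays limits the precision.

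Probesets were named from the platform annotation: of 35556, 21789 had 1 gene symbol, 1621 several and 12146 none. Those with 1 symbol were used, at 1 probeset a gene by the highest mean. Genes over 5.38 (percentile 25 of all values) on at least 4 arrays were tested with limma 3.58.1 (lmFit and eBayes) in R 4.3.3 on all 12 arrays, with Benjamini-Hochberg adjustment over 16573 genes and a threshold of 0.05, for 3 comparisons. The study's methods state no model for the arrays. The t-test they name for qRT-PCR was run as an alternative and is called the methods' t-test. Single members also had a two-sided exact permutation test. Nothing in the labels says whether a tumor number links groups or whether tumors of a group share a culture or a day, so p-values measure the spread between these tumors.

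The members and lists were chosen with earlier results of these data known. Named genes were all members, up to 3 called genes of each pathway list, comparison and direction with the lowest adjusted p, the other SLRP genes, the genes next to each cluster, the markers that define a cell type, and the 5 genes most like Lum and the member with the next largest spread. Some further called genes were named after their values were seen. Alternatives were the filter, the mean of probesets, prior and weight settings, cyclic loess, median centring, 2 groups a fit, a replicate block, each tumor left out, the methods' t-test and a fold minimum of 1.5.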

Additional observations from a re-analysis of the deposited data

Results flagged for a closer look

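In the VR tumors, Ogn stood at 9.15 in replicate 5, while the nearest of the 3 others was at 10.12 and the highest at 10.18. The gap was 0.937 of the range of the group, above Dixon's limit for 4 samples. This was 1 of 30 groups examined (10 genes in 3 groups), and chance marks about 1 in 20 such groups. The sign of the Ogn difference between VR and R was the same without that tumor.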

How the results depend on the processing

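Called members were 6 in VR versus R, 0 in VdR versus R and 3 in VR versus VdR. The 6 include Lum and Ogn, known as different when the genes were chosen, and 4 calls remain without them. Counts below include Lum and Ogn as well. In VR versus R the count ran from 4 (the methods' t-test, which lost Ogn and Aspn) to 7 (no filter, which added Omd) over all alternatives. The R and VdR values of Omd lie under the filter value, so its added call is a description only. With each tumor left out in turn the VR versus R count stayed at 6. The count then ran from 0 to 1 in VdR versus R and from 1 to 4 in VR versus VdR. In VdR versus R array weights gave 1 (Bgn, lower), with 2595 calls over all genes in place of 1555. In VR versus VdR the methods' t-test gave 1 (Aspn, of 30 calls over all genes), a fit of only the 2 groups gave 4 (Ogn and Aspn added, Dcn lost), a minimum of 1.5-fold gave 1 (Lum), and leaving out the 5 tumors with muscle transcripts, chosen after seeing the data and leaving 2 R, 2 VdR and 3 VR tumors, gave 0 (of 7 calls over all genes). There fewer tumors were fitted. The Dcn difference in VdR versus R changed sign with cyclic loess (0.0094) and ran from -0.0509 to 0.0417 when 1 tumor was left out. No other difference of a tested member changed sign.

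The replicate block gave 6, 0 and 3 members in the 3 comparisons, but in VR versus VdR it called Ogn in place of Dcn. It moved the calls over all genes in VR versus R from 3500 to 3927. The tumors share only a number: same-numbered pairs correlated from -0.15 to 0.40, 8 of 12 over 0.1, and 3 of 12 tumors correlated best with their own number.

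Signal limits Omd, Kera and Fmod, which lie near the bottom of the scale, and Dcn and Bgn, which lie near its top. The 4 tumors a group limit the exact test to 0.0286.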
